A study of Mus musculus with 10 samples.

Results

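Transcripts of 10 receptor genes for peptide transmitters were followed in trigeminal ganglia of mice, where the cell bodies of facial sensory neurons lie among satellite glia and Schwann cells. They encode the opioid receptors Oprm1, Oprd1 and Oprk1, the galanin receptors Galr1 and Galr2, the NPY receptors Npy1r and Npy2r, the neurotensin receptor Ntsr2, the somatostatin receptor Sstr2 and the PACAP receptor Adcyap1r1. The genes were chosen by name, with earlier results of these data known. By gene identifier all 10 were found in both deposited tables, among 26411 genes in the surgery table and 55886 in the injection table. RNA came from 10 libraries. The surgery experiment had 3 sham libraries and 3 libraries after the operation that the labels abbreviate as pIONT, taken after 10 days. In the injection experiment the ganglion itself received urocortin 1 (UCN1, 2 libraries), which belongs to the corticotropin-releasing factor peptides, or phosphate-buffered saline (PBS, 2 libraries), and RNA was taken after 6 hours. No strain, sex, age or genotype and no number of animals per library was given in the sources used here. The p-values therefore measure only how far these samples spread, and that spread may be technical.

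All 10 receptors are G protein-coupled. Receptors for opioids, galanin, NPY, somatostatin and nociceptin act mainly through Gi/o proteins, which lower cAMP, open GIRK potassium channels and close presynaptic calcium channels, so that in sensory neurons they usually reduce firing and transmitter release. Galr2 also couples to Gq, and Adcyap1r1, the PAC1 receptor, belongs to another receptor class that raises cAMP through Gs. Galanin, NPY, neurotensin and PACAP are peptides known for their increase in sensory neurons after nerve injury.

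The opioid receptor genes share short stretches of their coding sequence. The window of 60 coding bases below is shown because, of the ungapped windows searched, it was the most alike in these genes. It ends in the codons of the aspartate-arginine-tyrosine motif that follows the third membrane-spanning helix. Capitals mark the 48 bases that are identical in all 3 genes, and the sequences are those of the transcripts Oprm1-205, Oprd1-201 and Oprk1-201 in GENCODE vM21 (build GRCm38).
Oprm1, coding bases 439 to 498: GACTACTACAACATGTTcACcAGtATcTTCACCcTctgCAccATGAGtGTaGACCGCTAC
Oprd1, coding bases 382 to 441: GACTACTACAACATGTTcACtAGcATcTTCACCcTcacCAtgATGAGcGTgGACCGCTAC
Oprk1, coding bases 412 to 471: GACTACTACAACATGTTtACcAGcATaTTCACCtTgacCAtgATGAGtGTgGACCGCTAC
The longest run of identical bases between the coding sequences of any 2 of the 10 genes was 23, between Oprd1 and Oprk1. Of all runs of 50 bases in the receptor transcripts, the share also present in another gene was 0.583% for Oprm1, with the neighbouring gene Ipcef1, 0.109% for Oprk1, 2.84% for Npy1r and 0.0872% for Adcyap1r1. It was 0 for the other members. The exons of Oprm1 overlapped a gene on the opposite strand over 1.19% of their bases, and those of the other 9 receptors over none.

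RefSeq start sites (build GRCm38.p6) were found for 8 of the 10 receptors, all but Oprk1 and Galr1. In the 250 bases before the start, 3 motifs were searched on both strands. These were the cAMP response element TGACGTCA, the AP-1 site TGANTCA and the GC box GGGCGG, and no matches overlapped. The windows of Oprd1, Npy2r and Adcyap1r1 are shown because the transcripts of these genes passed the test after surgery. Capitals mark the GC box on either strand, and each window is written 5′ to 3′ on the strand of the gene.
Oprd1, chr4:132144487-132144736, minus strand: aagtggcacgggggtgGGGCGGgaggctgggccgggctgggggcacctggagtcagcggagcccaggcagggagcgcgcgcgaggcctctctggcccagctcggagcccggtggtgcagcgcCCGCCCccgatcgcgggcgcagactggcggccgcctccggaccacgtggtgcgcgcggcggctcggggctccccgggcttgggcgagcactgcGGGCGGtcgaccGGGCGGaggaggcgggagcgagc
Npy2r, chr3:82548086-82548335, minus strand: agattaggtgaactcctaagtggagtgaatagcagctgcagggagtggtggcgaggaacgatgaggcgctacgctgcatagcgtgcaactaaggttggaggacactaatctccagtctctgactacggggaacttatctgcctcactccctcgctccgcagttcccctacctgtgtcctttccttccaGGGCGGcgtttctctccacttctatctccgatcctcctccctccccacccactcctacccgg
Adcyap1r1, chr6:55451728-55451977, plus strand: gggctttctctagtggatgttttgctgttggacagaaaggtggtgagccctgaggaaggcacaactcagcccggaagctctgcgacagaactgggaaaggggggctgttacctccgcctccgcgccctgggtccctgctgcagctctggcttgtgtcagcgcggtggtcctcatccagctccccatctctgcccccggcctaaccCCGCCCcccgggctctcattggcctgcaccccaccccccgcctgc
A GC box was found 4 times before Oprd1, whose window was 80.0% G or C, and once each before Npy2r and Adcyap1r1. Sstr2 held 2 GC boxes and the only cAMP response element, which began 58 bases before the start. Npy1r held the only AP-1 site, 231 bases before the start. Among all 32851 windows of this length the GC box was found in 32.7%, the AP-1 site in 6.75% and the cAMP response element in 1.55%. A match describes the letters only.

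The values are FPKM, reads per kilobase of gene and per 1e6 reads, as the authors deposited them. The depth recovered from the values ranged from 24.1 to 29.6 M reads in genes (M for 1e6) over the surgery libraries and from 15.7 to 17.1 M over the injection libraries. All libraries expressed neuronal and satellite glial genes, with summed levels of 15 pan-neuronal genes at 2353 to 2516 FPKM in the surgery libraries. Sham 1 stood apart from the other surgery libraries in markers of tissue beside the ganglion. Its summed brainstem markers were at 26.1 FPKM against 8.16 to 10.4 FPKM in the other 5, and its summed pituitary markers at 767 FPKM against 80.8 to 255 FPKM. Among macrophage genes pIONT 2 was highest, at a sum of 851 FPKM against 344 and 387 FPKM in the other pIONT libraries and 158 to 294 FPKM in sham. In the injection experiment pituitary markers were at 123.5 and 124.0 FPKM in PBS and at 9.14 and 9.61 FPKM in UCN1. The part of these tissues in the results was not tested, and results are given without sham 1 and pIONT 2 beside the receptors that were called.

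The first comparison set pIONT against sham at 10 days and asked which receptor transcripts differed. Unless another setting is named, log2 fold changes are of FPKM + 0.5, which understates the change of low genes. Of the 10 receptors, 5 had levels that did not overlap between the groups. The opioid receptors Oprm1, Oprd1 and Oprk1 and the PACAP receptor Adcyap1r1 were lower in every pIONT library than in every sham library, and the NPY receptor Npy2r was higher in every one. Such separation was found in 43.4% of all 14672 genes tested, 24.7% as lower and 18.7% as higher, and an unadjusted limma p under 0.05 in 37.0%. Oprm1 and Oprk1 were not among the genes tested. With a mean of at least 0.5 FPKM required, 8 receptors were tested, of which Npy2r rose and Oprd1 and Adcyap1r1 fell (limma adjusted p under 0.05). Among all tested genes 22.8% were called, 10.5% as higher and 12.3% as lower. An unadjusted limma p under 0.05 was reached by 3 of the 8 as well. The median log2 fold change of the 8 receptors was -0.29, beside -0.02 over all tested genes. Because these are whole ganglia, fewer cells of a type and less RNA per cell cannot be told apart.

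**Figure D1:**
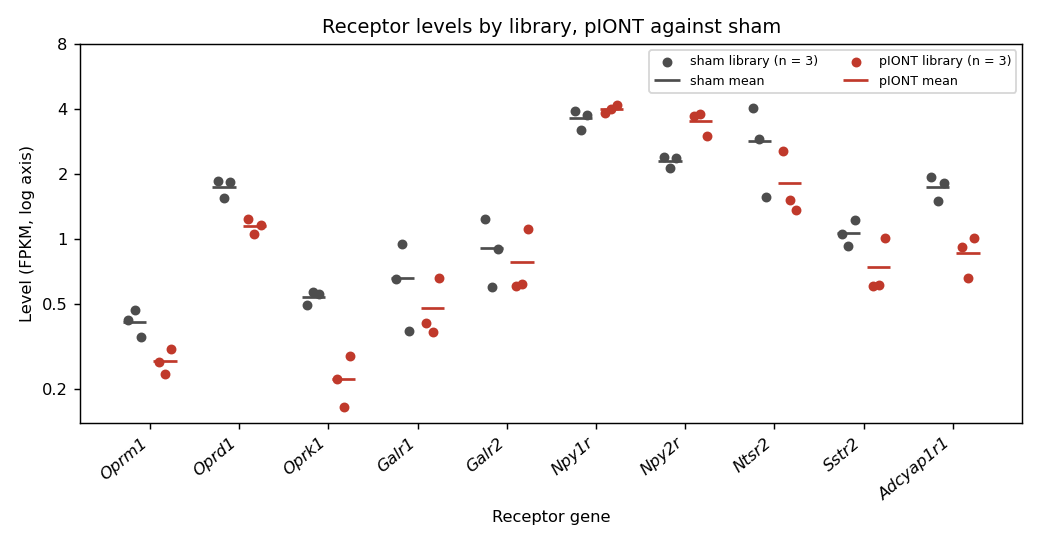
Level of each receptor gene in FPKM (vertical, log axis) in the 3 sham and 3 pIONT libraries, with points for libraries and bars for group means. Npy2r is higher in every pIONT library, at 3.005 to 3.77 FPKM against 2.12 to 2.38 in sham, while Oprm1, Oprd1, Oprk1 and Adcyap1r1 are lower in every pIONT library.

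Oprm1, the µ receptor for enkephalin, endorphin and morphine, lies on chromosome 10 at 6758506 to 7038198 (positions of all members are those of the injection table, in GRCm38). Its level was 0.418, 0.468 and 0.351 FPKM in sham 1 to 3 and 0.268, 0.235 and 0.307 FPKM in pIONT 1 to 3. These values stood for 92, 108 and 68 recovered reads in sham and 55, 55 and 73 in pIONT. Every pIONT library was below every sham library. Its mean was 0.412 ± 0.0585 FPKM in sham and 0.270 ± 0.0361 in pIONT (SD, n = 3), under the level required for the test. The FPKM of Oprm1 was low in part by construction, because the surgery table divides by all 8037 exon bases of its 31 transcripts, whose mean length is 1472 bases. A filter on reads, a mean of at least 10, was therefore added after the data were seen. It let all 10 receptors and 16690 genes into the test, of which 20.5% were called, 9.74% as higher and 10.8% as lower. With it 4 of the 10 receptors were called, Oprk1 being the one added. Oprm1 then had a log2 fold change of -0.24 (SE 0.080) and did not pass (limma adjusted p = 0.0746). With limma voom on the recovered reads, which adds no 0.5 FPKM to low values, it was -0.62 (SE 0.18, adjusted p = 0.0449), and voom called 5 of the 10 receptors and 21.7% of all genes.

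Oprd1, the δ receptor, which binds enkephalin, lies on chromosome 4 at 132110726 to 132144486. Its level was 1.84, 1.54 and 1.84 FPKM in sham and 1.24, 1.05 and 1.16 FPKM in pIONT, from 123 to 203 reads per library. All 3 pIONT libraries were below the lowest sham library, sham 2. Oprd1 fell from 1.74 ± 0.173 FPKM in sham to 1.15 ± 0.0937 FPKM in pIONT (SD, n = 3), which is -0.44 on the log2 scale (SE 0.090, 95% interval -0.65 to -0.23, limma adjusted p = 0.0152). The call was made in 19 of 24 alternatives. It was not made without sham 1 (-0.41, limma adjusted p = 0.0533), without sham 3 (-0.41, limma adjusted p = 0.0621) or with the values centred on pan-neuronal genes (-0.36, limma adjusted p = 0.0900). Without pIONT 2 it was -0.40 (limma adjusted p = 0.0433).

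Oprk1, the κ receptor for dynorphin, lies on chromosome 1 at 5588466 to 5606131. Its level was 0.490, 0.567 and 0.553 FPKM in sham and 0.222, 0.165 and 0.284 FPKM in pIONT, with 123, 149 and 122 reads against 52, 44 and 77. The groups were far apart, since the highest pIONT library was below the lowest sham library by more than the range of the sham libraries. Read rates in pIONT were 0.418 of those in sham (95% exact interval 0.347 to 0.501, which covers counting error only). Like Oprm1 it was under the FPKM filter, at means of 0.537 ± 0.0406 and 0.224 ± 0.0597 FPKM (SD, n = 3). With the filter on reads Oprk1 fell by 0.52 on the log2(FPKM + 0.5) scale (SE 0.085, limma adjusted p = 0.00787), and with limma voom by 1.29 (SE 0.20, adjusted p = 0.00358). It was called in all 9 alternatives that tested it, which were no filter and variants of the filter on reads. With that filter it was at -0.55 without sham 1 (limma adjusted p = 0.0222) and -0.46 without pIONT 2 (limma adjusted p = 0.0203). Centring on pan-neuronal genes, rescaling, other pseudocounts and array weights kept the FPKM filter, so they did not test Oprk1.

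The fourth opioid receptor gene, Oprl1, which encodes the nociceptin receptor and is outside the 10, was at 9.04, 8.95 and 9.65 FPKM in sham and 5.65, 4.88 and 7.39 FPKM in pIONT. It fell by 0.60 on the log2 scale (SE 0.13, limma adjusted p = 0.0186). With Oprl1, which was added to the 3 members here, all 4 opioid receptor genes were lower in every pIONT library than in every sham library. So were 24.7% of all tested genes, a set without Oprm1 and Oprk1.

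The galanin receptors were variable in both groups. Galr1, a Gi/o-coupled receptor on chromosome 18 at 82392380 to 82406777, was at 0.647, 0.943 and 0.375 FPKM in sham and 0.406, 0.367 and 0.656 FPKM in pIONT. The groups overlapped, and the log2 fold change of -0.22 (SE 0.21, 95% interval -0.71 to 0.26) did not pass (limma adjusted p = 0.472). Galr2, on chromosome 11 at 116280939 to 116283938, was at 1.23, 0.595 and 0.895 FPKM in sham and 0.605, 0.614 and 1.11 FPKM in pIONT. Again the groups overlapped, with pIONT 3 near the highest sham library, and the log2 fold change was -0.14 (SE 0.21, 95% interval -0.64 to 0.37, limma adjusted p = 0.678). Without sham 1 the sign changed, to 0.025 (limma adjusted p = 0.950). Galr1 rested on 27 to 81 reads per library and Galr2 on 38 to 83, so the intervals leave room for changes in either direction.

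The NPY receptors are both Gi/o-coupled, Npy1r being known on the cell body and dendrite and Npy2r on presynaptic endings. Npy2r lies on chromosome 3 at 82538383 to 82548084. Its level was 2.38, 2.12 and 2.38 FPKM in sham and 3.72, 3.77 and 3.005 FPKM in pIONT, with 194 to 221 reads in sham and 301 to 372 in pIONT. All pIONT libraries were above all sham libraries, with pIONT 3 the lowest of them. Npy2r rose from 2.29 ± 0.152 FPKM in sham to 3.50 ± 0.429 FPKM in pIONT (SD, n = 3), a ratio of means of 1.53. On the log2(FPKM + 0.5) scale Npy2r changed by 0.51 (SE 0.093, 95% interval 0.29 to 0.73, limma adjusted p = 0.0104). It was called in all 25 alternatives, at 0.54 without sham 1 (limma adjusted p = 0.0305) and 0.46 without pIONT 2 (limma adjusted p = 0.0311). Npy1r, on chromosome 8 at 66697192 to 66706792, was at 3.91, 3.20 and 3.73 FPKM in sham and 3.84, 3.99 and 4.17 FPKM in pIONT. Sham 1 reached into the range of the pIONT libraries. The log2 fold change of Npy1r was 0.13 (SE 0.078, 95% interval -0.05 to 0.32), and it did not pass (limma adjusted p = 0.263). Whether the changes of Npy1r and Npy2r differ from each other was not tested.

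Ntsr2, the lower-affinity neurotensin receptor, known from astrocytes as well as neurons, lies on chromosome 12 at 16653382 to 16660227. It was at 4.02, 2.91 and 1.57 FPKM in sham and 2.56, 1.52 and 1.36 FPKM in pIONT. In FPKM the sham libraries spread more widely here than for any other member (2.83 ± 1.23, SD, n = 3), and the groups overlapped. The log2 fold change was -0.49 (SE 0.31, 95% interval -1.21 to 0.23, limma adjusted p = 0.288). Sham 1, the library with the highest Ntsr2, was also the highest in 4 of 7 markers of brainstem glia. These were the oligodendrocyte genes Mog (2.68 FPKM against 0.0817 to 0.201 FPKM in the other 5) and Mobp and the astrocyte genes Aqp4 and Gfap (11.3 against 0.734 to 3.63 FPKM). It was not the highest in the astrocyte genes Gja1, at 5.00 FPKM against 5.25 FPKM in sham 2, and Slc1a2, at 0.734 FPKM against 0.762 FPKM in pIONT 1, or in Opalin. All of these but Gja1 were named with their values known. Sham 2, the second highest in Ntsr2, had summed brainstem markers of 8.52 FPKM, beside 9.44 FPKM in sham 3, where Ntsr2 was lower. Without sham 1 the log2 fold change of Ntsr2 was -0.24 (limma adjusted p = 0.609). The part of brainstem tissue in the level of Ntsr2 was not tested.

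Sstr2, a Gi/o-coupled somatostatin receptor on chromosome 11 at 113619342 to 113626028, was at 1.06, 0.925 and 1.22 FPKM in sham and 0.602, 0.608 and 1.01 FPKM in pIONT. The libraries pIONT 1 and 2 were below all sham libraries, and pIONT 3 lay between sham 1 and sham 2. The log2 fold change was -0.35 (SE 0.15, limma adjusted p = 0.139). Without pIONT 3 it was -0.50 and passed (limma adjusted p = 0.0346), so the call depends on that library, and the read counts were small, at 33 to 64 per library.

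Adcyap1r1, the PAC1 receptor for PACAP, had the largest decrease of the members on the log2(FPKM + 0.5) scale. With limma voom and the filter on reads the decrease of Oprk1 was larger, at -1.29 against -1.03. Adcyap1r1 lies on chromosome 6 at 55451978 to 55501451. Its level was 1.92, 1.50 and 1.82 FPKM in sham and 0.912, 0.655 and 1.01 FPKM in pIONT, with 284 to 348 reads in sham and 126 to 197 in pIONT. The highest pIONT library, pIONT 3, was below the lowest sham library, sham 2. Adcyap1r1 fell from 1.75 ± 0.222 FPKM in sham to 0.858 ± 0.183 FPKM in pIONT (SD, n = 3), a ratio of means of 0.492. On the log2(FPKM + 0.5) scale Adcyap1r1 changed by -0.73 (SE 0.13, 95% interval -1.03 to -0.43, limma adjusted p = 0.00929). Read rates in pIONT were 0.493 of those in sham (95% exact interval for counting error 0.440 to 0.551). It was called in all 24 alternatives, at -0.67 without sham 1 (limma adjusted p = 0.0353) and -0.62 without pIONT 2 (limma adjusted p = 0.0175).

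**Figure D2:**
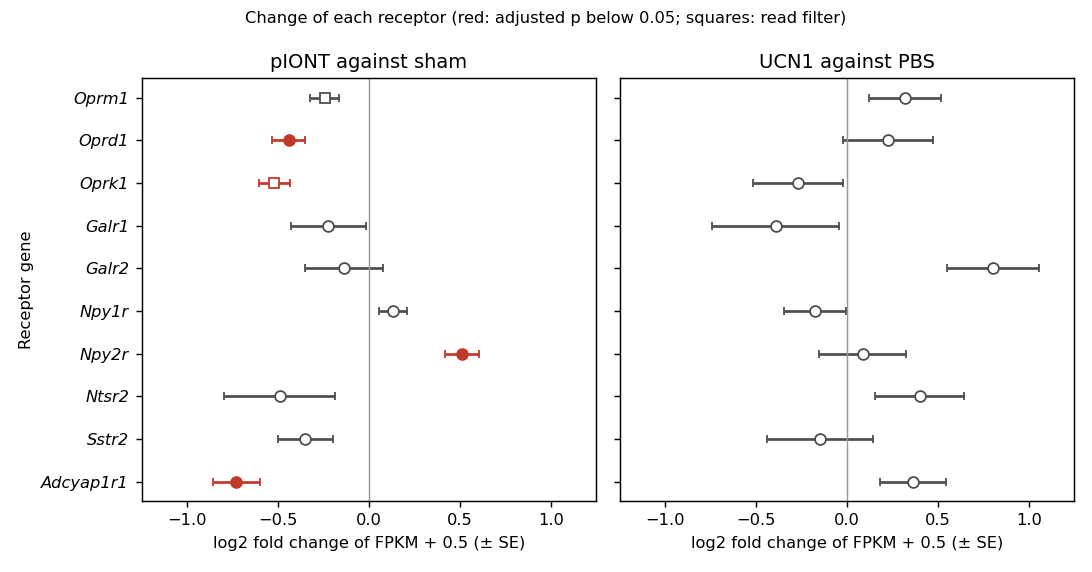
Log2 fold change of FPKM + 0.5 of each receptor (points, with bars for SE) in the surgery experiment at left and the injection experiment at right; red marks an adjusted p below 0.05 and squares the genes tested with the filter on reads. Adcyap1r1 lies lowest at -0.73 and Npy2r highest at 0.51 after pIONT, and no receptor is called after UCN1.

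Among all named genes tested, those whose values over the 6 surgery libraries were most like Adcyap1r1 were Tmem59l, Clrn2 and Tpbgl. Their root mean square distance from it, after each gene was centred on its own mean log2(FPKM + 0.5), was 0.0489, 0.0592 and 0.0694. For Npy1r, the member with the highest mean FPKM as deposited in the surgery table (not per mean transcript length), they were Ddit3, Ppp1cb and Ppp4r2, at 0.0309, 0.0337 and 0.0346. These are descriptions over 6 libraries, from a search of 13105 genes.

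The order of the members by level depended on the gene length used. In sham, per length of all exons, the order was Npy1r at 3.62 FPKM, Ntsr2 at 2.83, Npy2r at 2.29, Adcyap1r1 at 1.75, Oprd1 at 1.74, Sstr2 at 1.07, Galr2 at 0.908, Galr1 at 0.655, Oprk1 at 0.537 and Oprm1 at 0.412. The ranges of neighbours in this order did not overlap between Npy2r and Adcyap1r1, between Oprd1 and Sstr2, or between Oprk1 and Oprm1. All other neighbours overlapped. Per kilobase of mean transcript length and 1e6 reads, Oprm1 moved from the last place to the fifth, at 2.25, and Adcyap1r1 to the second, at 5.32, after Ntsr2 at 6.21. In pIONT, per length of all exons, Npy1r at 4.00 FPKM and Npy2r at 3.50 FPKM led, and Oprm1 at 0.270 and Oprk1 at 0.224 FPKM were last, with ranges that overlapped. In PBS, where the deposited values already use the mean transcript length, Npy1r was highest at 7.05 FPKM, Oprm1 was second at 4.51 and Galr1 was lowest at 0.702. FPKM were not compared between the tables.

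Several of the peptides that act on these receptors rose after surgery. Of 14 ligand genes listed, 8 were tested, with a median log2 fold change of 1.87. Of these 5 rose and none fell, beside 10.5% and 12.3% of all tested genes. Some of the ligand genes were already known to rise in these data when the list was written, so its direction is a description. Gal was at 9.63, 9.09 and 13.2 FPKM in sham and 929.7, 1525 and 793 FPKM in pIONT (log2 fold change 6.56, SE 0.25, limma adjusted p = 2.04e-05). Npy, which the table lists at 0 in sham 2, was at 0.258, 0 and 0.220 FPKM in sham and 184, 203 and 131 FPKM in pIONT (8.04, SE 0.21, limma adjusted p = 3.04e-06). The pIONT libraries lay far above the sham libraries for both. Nts, the neurotensin precursor, went from 2.39 to 2.98 FPKM in sham to 130.1 to 155 FPKM in pIONT (5.50, SE 0.089, limma adjusted p = 4.96e-07). Adcyap1, which encodes PACAP, went from 15.1, 15.9 and 15.1 FPKM to 52.2, 49.7 and 39.7 FPKM (1.58, SE 0.099, limma adjusted p = 0.000165), while its receptor Adcyap1r1 fell. Penk, the enkephalin precursor, was at 0.782, 0.468 and 1.27 FPKM in sham and 5.31, 6.13 and 4.67 FPKM in pIONT (2.17, SE 0.21, limma adjusted p = 0.00114), while Oprd1 fell. The exons of Penk overlap a gene on the opposite strand over 14.3% of their bases, and the strand of the reads was not given. Sst, the somatostatin precursor, was at -0.32 (limma adjusted p = 0.193) and Spx, which encodes spexin, a galanin receptor ligand, at -0.01 (limma adjusted p = 0.983). Pomc, the endorphin precursor and a pituitary gene, was at 158 FPKM in sham 1 and at 1.08 to 5.02 FPKM in the other 5 libraries (-1.59, limma adjusted p = 0.514). Pdyn, the dynorphin precursor, was under the filter, at 0.0702 to 0.193 FPKM, as were Pnoc, Cort, Vip and Galp.

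**Figure D3:**
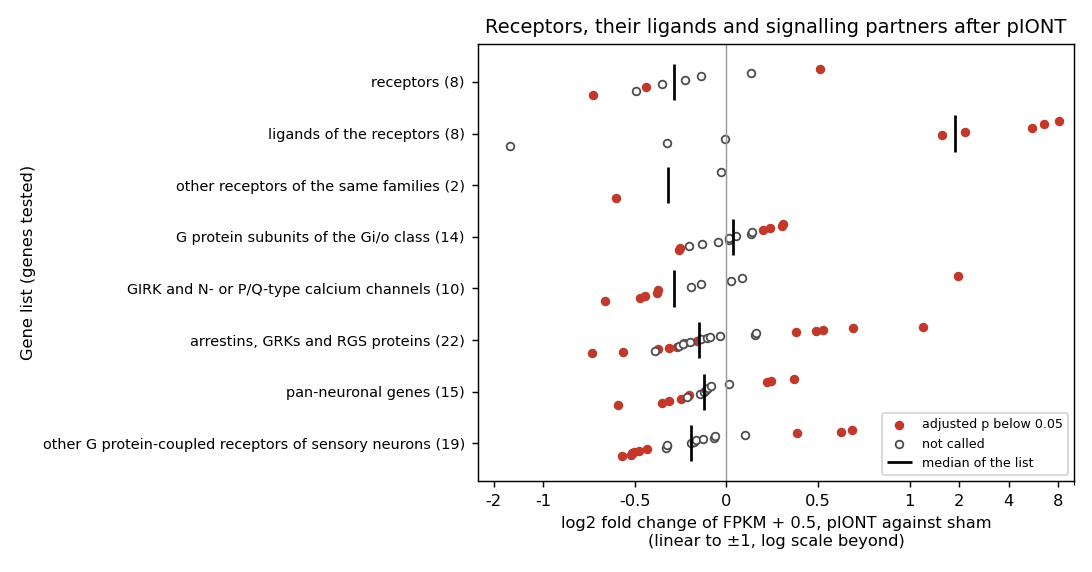
Log2 fold change of FPKM + 0.5, pIONT against sham (horizontal, linear to ±1 and log beyond), for the tested receptors and for the tested genes of each list, with red points for adjusted p below 0.05 and bars for medians. The ligands reach 8.04 with a median of 1.87, and the medians of the other lists drawn lie between -0.32 and 0.03.

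Other receptors of the same peptide families were mostly at low levels. Of 12 listed, Oprl1 and Sort1 passed the filter, Oprl1 fell as above, and Sort1, a sorting receptor that also binds neurotensin, was at -0.03 (limma adjusted p = 0.753). In all 12, the pIONT libraries were all below the sham libraries for 5 and all above them for 3. The shares were 24.7% and 18.7% among all tested genes, a set that holds only Oprl1 and Sort1 of the 12. With the filter on reads 7 were tested, none rose and 3 fell, beside 9.74% and 10.8% of genes. These were Oprl1, the VIP and PACAP receptor Vipr2 (-0.51, limma adjusted p = 0.0164) and the NPY receptor Npy5r (-0.37, limma adjusted p = 0.0499), the last close to the threshold. The somatostatin receptor Sstr1 was at 0.27 and the NPY receptor Npy4r at -0.17 (limma adjusted p = 0.0826 and 0.114). Sort1, Vipr2, Npy5r, Sstr1 and Npy4r were named with their values known.

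Of 14 G protein subunit genes of the Gi/o class 4 rose and 2 fell, with a median log2 fold change of 0.03. Among all tested genes 10.5% rose and 12.3% fell. Gnai1, an inhibitory α subunit, fell by 0.25 (limma adjusted p = 0.00605), while Gnai3, another one, rose by 0.31 (limma adjusted p = 0.0249). The γ subunits Gng3 and Gng2 rose by 0.31 and 0.20 (limma adjusted p = 0.0221 and 0.0222), Gng3 overlapping a gene on the other strand over 24.2% of its exon bases. Of 10 tested genes for the effector channels, GIRK potassium channels and N- or P/Q-type calcium channels, 1 rose and 5 fell, with a median of -0.28. Kcnj3, which encodes GIRK1, went from 4.65 to 5.54 FPKM in sham to 2.74 to 3.52 FPKM in pIONT (-0.66, limma adjusted p = 0.00543), with 31.1% of its exon bases overlapped on the other strand. Kcnj9, which encodes GIRK3, fell by 0.37 (limma adjusted p = 0.0231) and Cacna2d2, a calcium channel α2δ subunit that binds gabapentin, fell by 0.47 (limma adjusted p = 0.00687). Cacna2d1, another gabapentin-binding α2δ subunit, rose instead, from 8.34 to 9.15 FPKM in sham to 33.7 to 38.1 FPKM in pIONT (1.96, limma adjusted p = 9.67e-06).

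Genes that end receptor signalling went both ways. Of 22 genes for arrestins, G protein-coupled receptor kinases and RGS proteins 5 rose and 7 fell, with a median of -0.15. The shares among all tested genes were 10.5% and 12.3%. Arrb1, an arrestin that uncouples receptors, was at 25.2, 23.7 and 24.3 FPKM in sham and 39.7, 42.4 and 37.1 FPKM in pIONT (0.69, SE 0.056, limma adjusted p = 0.000518). The receptor kinase Grk6 rose by 0.49 (limma adjusted p = 0.00275) and Rgs20, which speeds the turn-off of Gi/o subunits, by 1.21 (limma adjusted p = 0.00317). Rgs8 fell by 0.57 (limma adjusted p = 0.0041).

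Genes that all sensory neurons express went both ways. Over all tested genes 10.5% rose and 12.3% fell. Of 15 pan-neuronal genes 3 rose and 5 fell, with a median of -0.12, including the synaptic gene Snap25 at -0.59 (limma adjusted p = 0.00799), the nuclear marker Rbfox3 at -0.35 (limma adjusted p = 0.0114) and the RNA-binding protein gene Elavl3 at 0.37 (limma adjusted p = 0.00202). With the values centred on these genes Adcyap1r1 was at -0.65 (limma adjusted p = 0.0177) and Npy2r at 0.60 (limma adjusted p = 0.0185). Of 19 tested genes for other G protein-coupled receptors of sensory neurons, most of them Gi/o-coupled, 3 rose and 7 fell, with a median of -0.19. The glutamate receptor Grm4 fell by 0.48 (limma adjusted p = 0.00558). The serotonin receptors Htr1d and Htr1f rose by 0.38 and 0.62 (limma adjusted p = 0.00571 and 0.00676), and the dopamine receptor Drd2 rose by 0.68 (limma adjusted p = 0.00588). The other serotonin receptors of this list went the other way. Htr1a fell by 0.52 (limma adjusted p = 0.0231), and Htr1b was at -0.33 and was not called (limma adjusted p = 0.0648). Htr1a and Htr1b were named with their values known.

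Markers of cell types moved as well, and their part in the receptor values was not tested. Over all tested genes 10.5% rose, 12.3% fell and 37.0% had an unadjusted limma p under 0.05. Of markers of non-peptidergic nociceptors 4 of 6 fell, of peptidergic nociceptors 1 of 6 and of cold-sensing neurons 2 of 2 (Trpm8, -1.10, limma adjusted p = 0.00472). Of 8 markers of myelinated sensory neurons 4 fell and 1 rose, and of 6 markers of pruriceptors 2 rose, among them Nts, and 1 fell. None of 3 markers of C-fibre low-threshold mechanoreceptors was called, with 1 at an unadjusted limma p under 0.05. Of Schwann cell markers 6 of 7 fell, of satellite glia markers 2 of 7 rose and of macrophage markers 6 of 9 rose. Of 7 endothelial and mural markers 1 fell. No marker of brainstem glia (6 tested), pituitary (5) or meninges and fibroblasts (9) was called, with 0, 0 and 1 at an unadjusted limma p under 0.05.

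**Figure D4:**
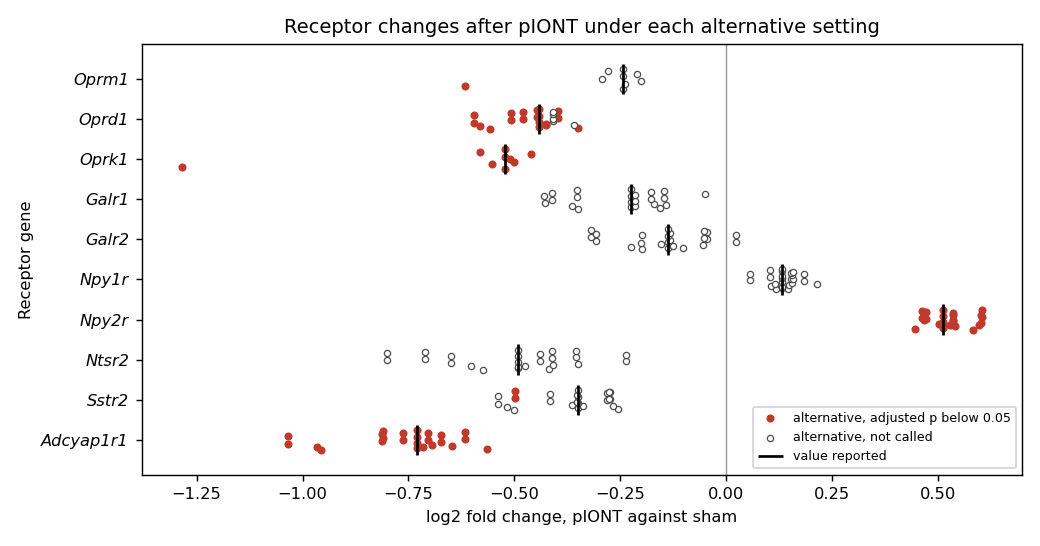
Log2 fold change of each receptor, pIONT against sham (horizontal), under each alternative processing (points, red where adjusted p was below 0.05), with a bar for the value reported; points from voom are on the scale of log2 reads. Npy2r stays between 0.45 and 0.61 and Adcyap1r1 between -1.03 and -0.56, all called.

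The second comparison asked which of the receptor transcripts differed 6 hours after UCN1 was put into the ganglion. None of the 10 receptors was called with limma, beside 0.601% of all 16139 tested genes (0.304% as higher and 0.297% as lower). None was called with the filter on reads, beside 1.10% of genes, or with that filter and limma voom, beside 2.38%. At an unadjusted limma p under 0.05, 1 receptor, Galr2, passed, beside 13.1% of all tested genes. For 3 of the 10 the groups did not overlap, Galr2 and Adcyap1r1 being higher and Galr1 lower in both UCN1 libraries. Such separation was found in 45.5% of all tested genes with 2 libraries per group, 21.8% as higher and 23.7% as lower. The median log2 fold change of the 10 receptors was 0.15, beside -0.01 over all tested genes.

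Galr2 was at 0.999 and 1.48 FPKM in PBS and at 2.56 and 2.44 FPKM in UCN1, from 28 and 45 reads against 78 and 72. Both UCN1 libraries were above both PBS libraries. The mean was 1.24 ± 0.339 FPKM in PBS and 2.50 ± 0.0847 in UCN1 (SD, n = 2). On the log2(FPKM + 0.5) scale the difference was 0.80 (SE 0.25, 95% interval 0.22 to 1.38), which did not pass over all genes (limma adjusted p = 0.249). Read rates in UCN1 were 2.00 times those in PBS (95% exact interval for counting error 1.51 to 2.69). Across 20 alternatives the adjusted p ranged from 0.0173 to 0.739, and 1 of them, the filter on reads without PBS 2, made the call, at 1.00 (limma adjusted p = 0.0173). Galr1 was at 0.853 and 0.550 FPKM in PBS and 0.334 and 0.487 FPKM in UCN1, and it rested on 17 to 40 reads (-0.39, SE 0.35, limma adjusted p = 0.673).

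**Figure D5:**
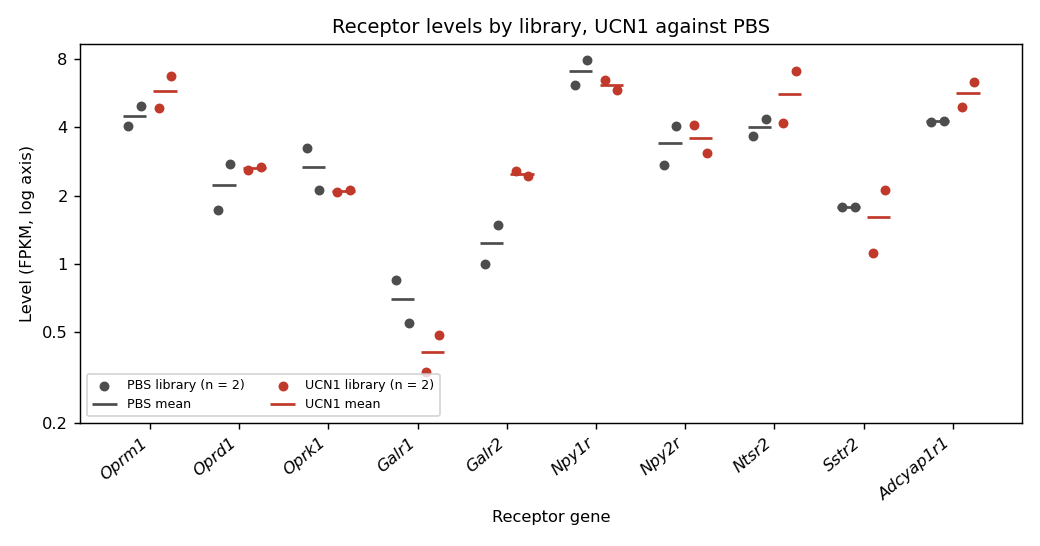
Level of each receptor gene in FPKM (vertical, log axis) in the 2 PBS and 2 UCN1 libraries, with points for libraries and bars for group means. Galr2 is at 2.44 and 2.56 FPKM in UCN1 against 0.999 and 1.48 FPKM in PBS, and the groups overlap for 7 of the 10 receptors.

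Adcyap1r1 was at 4.24 and 4.25 FPKM in PBS and at 4.93 and 6.35 FPKM in UCN1. Both UCN1 libraries were higher, and the log2 fold change of 0.36 (SE 0.18, 95% interval -0.05 to 0.78) did not pass (limma adjusted p = 0.438). Of the opioid receptors, Oprm1 was at 4.07 and 4.94 FPKM in PBS and 4.86 and 6.71 FPKM in UCN1 (0.32, SE 0.20, limma adjusted p = 0.535). Oprd1 was at 1.73 and 2.74 FPKM against 2.60 and 2.68 FPKM (0.22, SE 0.25, limma adjusted p = 0.741), and Oprk1 at 3.26 and 2.11 FPKM against 2.07 and 2.12 FPKM (-0.27, SE 0.25, limma adjusted p = 0.681). The groups overlapped for all 3. Oprl1 was at 13.7 and 14.2 FPKM in PBS and 13.8 and 14.1 FPKM in UCN1 (0.00, limma adjusted p = 0.998).

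Npy1r was at 6.16 and 7.95 FPKM in PBS and 6.46 and 5.81 FPKM in UCN1 (-0.18, SE 0.17, limma adjusted p = 0.702), and Npy2r at 2.73 and 4.06 FPKM against 4.11 and 3.09 FPKM (0.08, SE 0.24, limma adjusted p = 0.914). Ntsr2 was at 3.67 and 4.37 FPKM in PBS and 4.16 and 7.06 FPKM in UCN1 (0.40, SE 0.24, limma adjusted p = 0.523). Sstr2 was at 1.78 and 1.79 FPKM in PBS and 1.12 and 2.12 FPKM in UCN1 (-0.15, SE 0.29, limma adjusted p = 0.863). The groups overlapped for all 4, and UCN1 2 was the highest library for Ntsr2, Sstr2, Oprm1 and Adcyap1r1.

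Of the ligand genes 7 were tested after UCN1, with a median of 0.28. None rose and 1 fell, beside 0.304% and 0.297% of all tested genes. Pomc was at 5.62 and 4.06 FPKM in PBS and 1.03 and 0.915 FPKM in UCN1 (-1.84, limma adjusted p = 0.0223). Pomc is itself one of the 5 tested pituitary markers, of which 3 fell, the others being the growth hormone gene Gh and the prolactin gene Prl. Gh went from 103 and 104 FPKM to 5.17 and 6.60 FPKM (limma adjusted p = 8.41e-06), and the part of that tissue in the value of Pomc was not tested. Nts was at 0.919 and 0.846 FPKM in PBS and 3.24 and 2.96 FPKM in UCN1 (1.38, SE 0.24, limma adjusted p = 0.0573), and Gal at 5.76 and 3.70 FPKM against 7.87 and 8.13 FPKM (0.73, SE 0.21, limma adjusted p = 0.209). Both UCN1 libraries were above both PBS libraries for each, and neither passed. Adcyap1 was at 0.28, Pdyn at 0.94, Penk at -1.27 and Sst at 0.02 on the log2 scale (limma adjusted p = 0.422, 0.389, 0.311 and 0.985). Npy was under the filter, at 0 in both PBS libraries and at 0.414 and 0.107 FPKM in UCN1, as were Pnoc, Spx, Cort and Vip, and Galp and Pyy were at 0 in all 4 libraries.

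None of the tested genes for G protein subunits (14), effector channels (11), arrestins, kinases and RGS proteins (22), pan-neuronal genes (15), other receptors of the same families (4) or other receptors of sensory neurons (20) was called after UCN1. At an unadjusted limma p under 0.05 these lists had 1, 1, 2, 1, 0 and 0 genes, beside 13.1% of all tested genes. Over all tested genes 0.304% were called as higher and 0.297% as lower. None of the markers of the 6 groups of sensory neurons, of satellite glia, Schwann cells, macrophages or of endothelial and mural cells was called. Each of these lists had 0 to 4 genes at an unadjusted limma p under 0.05. The largest shares were 4 of 6 for pruriceptors and 3 of 7 for satellite glia, beside 13.1% of all tested genes. Of the 5 tested genes listed with the brainstem glia, Gfap rose by 1.66 (limma adjusted p = 0.0462) and the other 4 were not called. Of 9 markers of meninges and fibroblasts 4 fell. Whether the receptors changed differently in the surgery and injection experiments was not tested, because the tables were made separately.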

How the data were processed

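RNA of mouse trigeminal ganglion was sequenced in 10 libraries, 3 sham and 3 pIONT in the surgery experiment and 2 PBS and 2 UCN1 in the injection experiment. Per the labels' protocols, TRIzol was used for extraction and the NEBNext Ultra II RNA kit for the libraries. The authors deposited FPKM in 1 table per experiment, with the injection columns numbered 1 and 3 where the titles number 1 and 2. STAR, HTSeq, DESeq2 and the build GRCm39 are named per the submitters' processing notes, without version or role. The strand of the counting was not given in the sources used here. Of the gene identifiers found in GENCODE vM21, 99.42% in the injection table had the same position as in that annotation of GRCm38, and 1.99% in the surgery table.

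Multiplied by a gene length, most low values fell on whole steps of 1 read (tolerance 0.1 reads, up to 20 reads), namely 92.4% to 92.8% with all exons as length in the surgery table, and 98.8% to 99.0% with the mean transcript length in the injection table. The steps gave depth and reads, whole within 0.2 reads for 10 receptors in the surgery table and for 9 in the injection table, all but Oprk1. Genes with a mean of at least 0.5 FPKM entered a two-sided limma test (limma 3.58.1, R 4.3.3) of log2(FPKM + 0.5) within each table, with a mean-variance trend and Benjamini-Hochberg adjustment over all genes tested. Fold changes on this scale understate the change of low genes. A gene is called at an adjusted p under 0.05. Intervals for ratios of reads are exact, at 95%, and cover counting error only. Between libraries of a group, chi-square divided by its degrees of freedom was 6.21 to 16.1, above sampling noise.

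The receptors and all gene lists were chosen with earlier results of these data known. The genes named are the receptors, all ligands, up to 4 called members by smallest p of each other list and up to 2 of each list of markers. A list with no call gave its 1 or 2 most abundant genes, and Adcyap1r1 and Npy1r gave 3 genes each with the most alike values. For genes outside this rule the text says that they were named with their values known. A few genes under this rule are not reported here.

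The alternatives were other pseudocounts (0.1 and 1), no filter and a mean of at least 2 FPKM, rescaling to TPM or by the median of ratios, centring on pan-neuronal genes, array weights, voom on recovered reads, a replicate block and leaving out each library. The filter on reads, alone and with voom, the block or a library left out, was added after the data were seen. On simulated data with 14351 genes for the surgery experiment, 28.8% of genes with a log2 change of 0.585, 94.0% with 1 and 100% with 2 were called. With 15511 genes for the injection experiment the shares were 0%, 32.8% and 92.2%. The simulated reads had the same dispersion, 0.02, for every gene and no differences in tissue between libraries. The shares therefore need not hold for these receptors.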

Additional observations from a re-analysis of the deposited data

How the results depend on the processing

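In the surgery experiment 3344 genes were called. The count was 1877 with centring on pan-neuronal genes, which moved the median of all genes to 0.06, and 1689 to 2969 when 1 library was left out, lowest without sham 3 and 2076 without sham 2. The share of calls that were higher was 46.0%, 65.6% with that centring, 36.7% with TPM rescaling and 54.5% with the median of ratios. Of the receptors 3 were called, 1 with a mean of at least 2 FPKM, which tests 3 of them, 5 with the filter on reads and voom, and 2 to 4 when 1 library was left out, or 3 to 5 with the filter on reads. In the injection experiment 97 genes were called, 2 with no filter, 155 with a mean of at least 2 FPKM, 16 with centring on pan-neuronal genes, which moved the median of all genes to -0.10, 354 with voom, and 5 to 38 when 1 library was left out. The share of calls that were higher was 50.5%, and 25.0% with that centring. Of the receptors none was called there, or 0 to 1 with the filter on reads when 1 library was left out.

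Correlations of the deviations of libraries with the same number were -0.055, -0.20 and 0.068 after surgery and 0.039 after injection. Such values cannot show whether the numbers pair the samples. With 2 libraries per injection group the correlations can differ only in sign. With the replicate block 2085 genes were called after surgery and 260 after injection, and 3 and 0 receptors.

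With 1 library left out, with either filter, the log2 fold change of Galr2 after pIONT ranged from -0.32 to 0.025 and changed sign without sham 1. After UCN1 Oprd1 ranged from -0.047 to 0.49 and changed sign without PBS 1, and Sstr2 from -0.50 to 0.20 and changed sign without UCN1 1. Npy2r after UCN1 ranged from -0.16 to 0.33, changed sign without PBS 1 and, at -0.095, without UCN1 1, and was at -0.0083 with centring on pan-neuronal genes. None of these was called in any setting, and where no construction of the alternative gives it, the cause was not tested. Npy2r and Adcyap1r1 after pIONT kept their direction and their call in every alternative that tested them. A lone library left in a group is assumed to vary like the others. In the simulated data with 2 libraries per group few changes under 2-fold were recovered, and receptors at 17 to 83 reads per library have wide counting error.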
